A study of Ictidomys tridecemlineatus with 5 samples.

Results

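The TGF-beta and BMP pathway was followed in ocular RNA of the ground squirrel Ictidomys tridecemlineatus, a hibernating rodent active by day. Its members were the Swiss-Prot proteins whose description starts with the family names of the ligands (transforming growth factor beta, bone morphogenetic protein, growth/differentiation factor, inhibin), of the receptors (TGF-beta and activin receptors), of the SMAD signal transducers (mothers against decapentaplegic) or of the secreted inhibitors (noggin, follistatin, gremlin). This rule found 51 proteins among the 15938 Swiss-Prot names in the tables. All 51 had a transcript in the eye table and 48 had one in the retina table. A name match also takes in 8 proteins that are only named for the pathway or carry a follistatin-like domain, and these are described apart from the 43 others.

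RNA sequencing covered 2 libraries of eye and 3 libraries of retina, all from animals labelled wild type, with no treatment named. Each library preparation pooled RNA of 4 animals, per the labels, and the sources used here do not give age, sex or season. The deposited tables give each transcript 1 value for a tissue, so the spread between libraries is unknown and no difference below has a replicate check or a p-value. Levels are RPKM, reads scaled to the length of the transcript and the total of reads, of the highest transcript assigned to a protein.

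Ligands of this family are secreted dimers that bring together type I and type II receptor kinases on the cell surface. The type I kinase then phosphorylates receptor SMADs, which join SMAD4 and enter the nucleus. TGF-beta and activin ligands act mainly through SMAD2 and SMAD3, and BMP ligands through SMAD1, SMAD5 and SMAD9, while SMAD6, SMAD7 and secreted binding proteins restrain signalling. In the eye the family is known for its part in lens and retina development in the mouse, and in the matrix of cornea and aqueous outflow tissue.

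The labels were checked against marker genes. There were 26 markers of lens, cornea, connective tissue, pigmented cells, smooth muscle, endothelium, immune cells, skeletal muscle and ciliary body or outflow tissue. Of these, 22 had a difference, and by their highest transcripts all 22 were at least 2-fold higher in eye. A further 3 (MIP, KRT3 and MYOC) had a transcript in the eye table only, and CSF1R in the retina table only. The highest eye transcript of PTGDS was a fragment of 218 bases. With best-matching transcripts PTGDS was at 321 RPKM in eye and 218 RPKM in retina, below 2-fold. Summed over each of these 9 lists by highest transcript, the ratio of eye to retina ran from 3.72 for smooth muscle to 4291 for lens. The 4 connective tissue markers summed to 465 RPKM in eye and 11.9 RPKM in retina, and the 3 endothelial markers to 63.5 and 3.25 RPKM. In eye the values of CRYAA, CRYBB2 and DCN, at 2350, 2743 and 376 RPKM, came from transcripts of 147, 402 and 734 bases. Their best-matching eye transcripts were at 550, 795 and 102 RPKM. The 4 photoreceptor markers summed to 3730 RPKM in eye and 6852 RPKM in retina, and were abundant in both by their highest transcripts. Some of these were fragments, of 139 bases for ARR3 in eye and 151 bases for PDE6H in retina. With best-matching transcripts PDE6H was at 2.50 RPKM in eye and 1599 RPKM in retina, and ARR3 at 540 and 452 RPKM. The 2 Mueller glia markers summed to 1204 RPKM in eye and 1124 RPKM in retina by their highest transcripts. In such bulk samples, fewer cells of a type and less RNA per cell cannot be told apart. The part of these other tissues in the differences below was not tested.

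In all, 12 members stood at least 2-fold higher in eye than in retina, and none stood at least 2-fold higher in retina. Those 12 were the ligands BMP4, BMP6, BMP2 and TGFB1, the receptors TGFBR2 and TGFBR3, the signal transducers SMAD6 and SMAD9, the inhibitor FSTL3, and TGFBI, FSTL1 and TGFB1I1, which are named for the pathway. Of all 51 members, 40 were at 1 RPKM or more in both tissues (11 of them among the 12), 4 in eye alone (BMP2, BMP3, INHBA and GREM1), and 4 in neither tissue (INHBB, GDF6, GDF9 and ACVR1C). The remaining 3, FST, BMP8A and GDF5, were in the eye table only and have no difference. The background was 13383 proteins that both tables list and that reach 1 RPKM in one tissue. Of these, 11.8% passed 2-fold with eye higher, 3.6% passed it with retina higher, and 49.7% had a higher value in eye at any size. Each difference is taken between log2(RPKM + 1) in eye and in retina, eye minus retina, which makes differences of low genes look smaller, and 2-fold is read on that scale.

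The median difference of the 44 members at 1 RPKM or more in either tissue was 0.40, against -0.0035 over all proteins, and 32 of the 44 were higher in eye. Members that pass this filter through eye alone had to lie higher there. With no filter the median of the 48 members in both tables was 0.28, with 12 at least 2-fold higher in eye, where 11.3% of all proteins passed. The pathway was expressed at modest levels: the median of the 48 was 5.58 RPKM in eye and 3.32 RPKM in retina, against 8.80 and 8.27 RPKM over all 13949 proteins in both tables. The levels were also scaled to the same total over proteins, called an equal total below. The median of all proteins then shifted to -0.24 and that of the members to 0.16, and 25 of the 44 were higher in eye. At that scaling 9 members stayed at least 2-fold higher in eye, where 8.75% of all proteins passed.

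**Figure D1:**
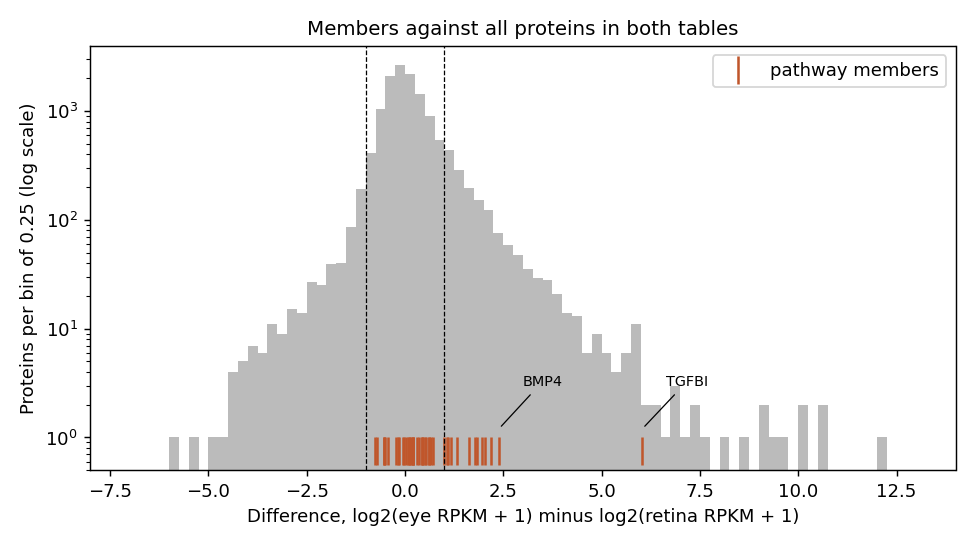
Differences between eye and retina on the log2(RPKM + 1) scale, eye minus retina, as a histogram of all 13383 proteins (grey, log scale) with 43 of the 44 pathway members as ticks at the base; dashed lines mark 2-fold. The members reach from -0.75 to 6.03, with TGFBI apart from the others and BMP4 next at 2.39.

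The BMP ligands showed the widest contrast among the ligands. BMP4, which in the mouse is needed for lens induction and dorsal retina patterning, was at 17.6 RPKM in eye and 2.55 RPKM in retina, a ratio of 6.88 (95% counting interval 6.51 to 7.28). BMP6, a close relative of BMP5 and BMP7 that also controls iron balance through the liver, was at 13.5 RPKM in eye and 2.52 RPKM in retina, a ratio of 5.35 (5.14 to 5.58). Both kept a 2-fold difference under each of the 11 alternative settings tried. BMP2, an inducer of bone and cartilage, was lower in level, at 2.88 RPKM in eye and 0.836 RPKM in retina, a ratio of 3.45. Its difference of 1.08 lay just above 2-fold and that of BMP3, a ligand known to oppose BMP2 in bone, just below it at 0.99, with 2.55 RPKM in eye and 0.785 RPKM in retina. BMP2 came to 0.9982 with best-matching transcripts, 0.88 with an equal total and 0.43 with a pseudocount of 5, each below 2-fold.

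The other BMP and GDF ligands lay closer together. BMP7, needed in the mouse for eye and kidney development, was at 10.5 RPKM in eye and 7.46 RPKM in retina, a ratio of 1.41. BMP5 was at 2.43 RPKM in eye and 1.99 RPKM in retina, and GDF10 (entry BMP3B) at 1.38 and 1.24 RPKM. GDF2, also called BMP9, a circulating ligand that acts on endothelium, was lower in eye, at 3.24 RPKM against 5.13 RPKM in retina, a ratio of 0.632 (0.601 to 0.665). It alone did so among the group's members at 1 RPKM or more, except that GDF10 was also lower with an equal total or with transcripts summed. GDF6 and GDF9 stayed below 1 RPKM in both tissues, as did BMP8A and GDF5 in eye. The make-up of the group therefore differed between the tissues. BMP4 held 31.4% of the summed RPKM of these ligands in eye and 10.9% in retina, whereas BMP7 held 18.8% in eye and 31.7% in retina, where it ranked first. The sum itself was 56.0 RPKM in eye and 23.5 RPKM in retina.

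All 3 TGF-beta ligands were higher in eye by their highest transcripts, TGFB1 by the widest margin, while TGFB2 was lower with transcripts summed. TGFB1, a broad regulator of matrix production and immunity, was at 6.37 RPKM in eye and 1.96 RPKM in retina, a ratio of 3.25 (3.01 to 3.52). Its difference of 1.32 came below 2-fold at 0.71 with a pseudocount of 5. TGFB2, in humans the main TGF-beta of the aqueous humour, was the most abundant of the 3 in both tissues, at 9.94 RPKM in eye and 7.93 RPKM in retina, a ratio of 1.25. The retina value came from a transcript of 1054 bases. A longer retina transcript, of 4614 bases, stood at 6.61 RPKM, and with transcripts summed the difference was -0.29. TGFB3, needed in the mouse for palate closure, was at 6.22 RPKM in eye and 3.70 RPKM in retina, a ratio of 1.68. TGFB1 made up 28.3% of the summed level of the 3 ligands in eye and 14.4% in retina.

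The 4 ligands that signal through activin receptors were mixed, with GDF11 and myostatin lower in eye and the activin subunits INHBA and INHBB higher. GDF11, which in the developing mouse retina limits ganglion cell number, was the most abundant ligand of this kind, at 17.2 RPKM in eye and 19.1 RPKM in retina, a ratio of 0.900. Myostatin (MSTN, entry GDF8), the brake on skeletal muscle growth, was at 5.32 RPKM in eye and 7.51 RPKM in retina, a ratio of 0.709 (0.684 to 0.734). The skeletal muscle markers summed to 586 RPKM in eye and 2.38 RPKM in retina. GDF8 and GDF11 are close paralogs, and whether they share reads was not tested. The activin subunit INHBA was at 1.91 RPKM in eye and 0.788 RPKM in retina, and INHBB at 0.652 and 0.377 RPKM. Summing transcripts turned GDF11 to a difference of 2.30, as eye held 6 assembled GDF11 transcripts between 16.1 and 17.2 RPKM and retina held 1.

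**Figure D2:**
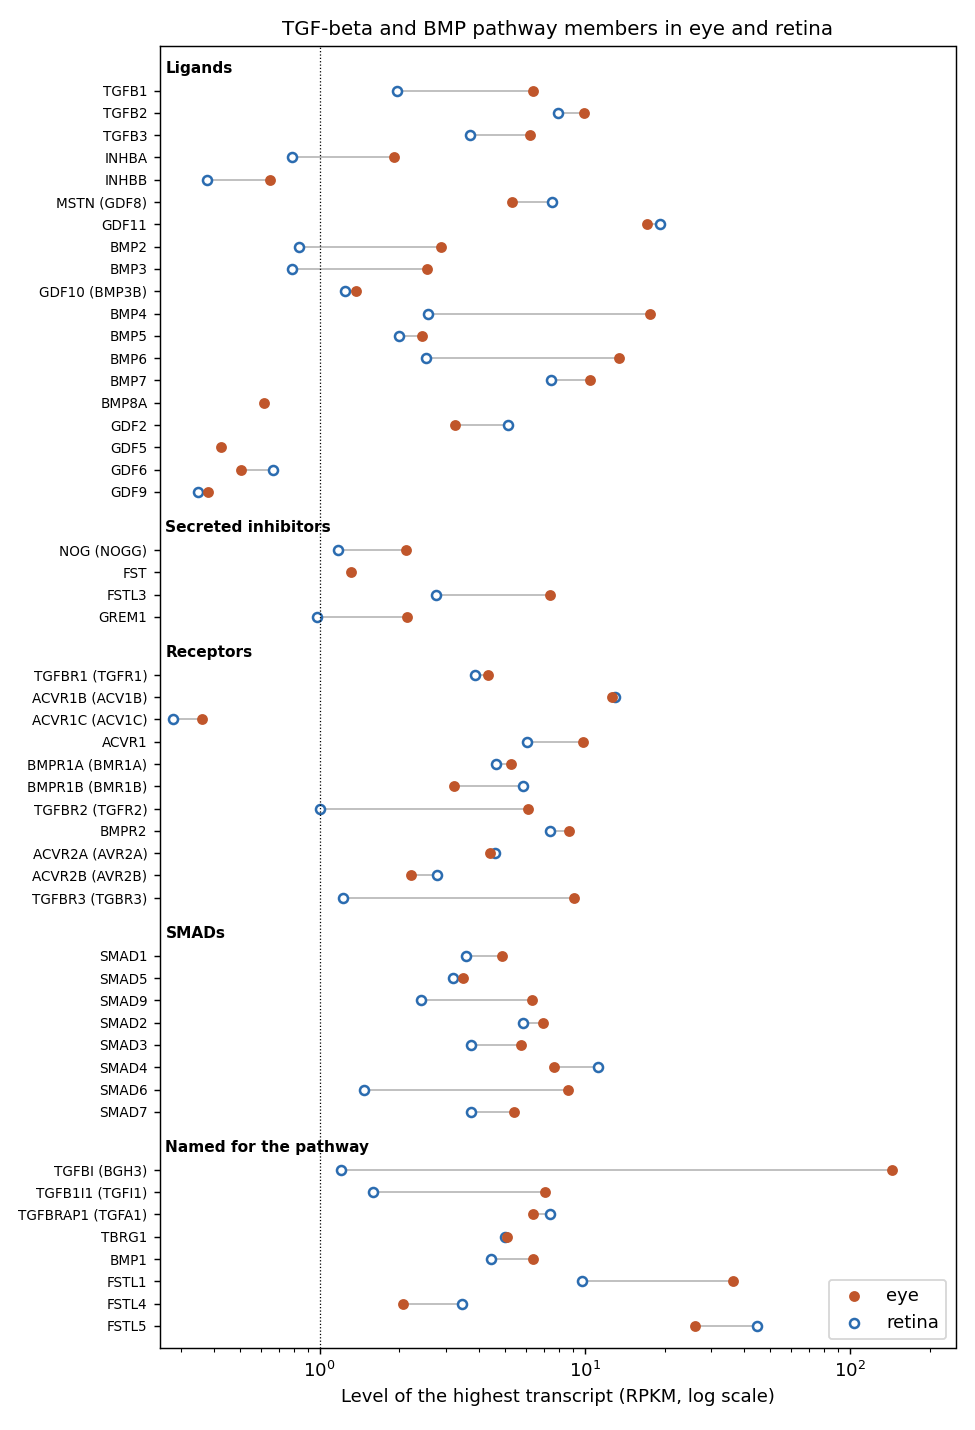
Level of 50 of the 51 members by role in eye (filled) and retina (open), as the RPKM of its highest transcript on a log scale, 1 value per tissue; the dotted line marks 1 RPKM and a lone filled point is a member of the eye table only. Long gaps stand at BMP4, BMP6, TGFBR2, TGFBR3, SMAD6 and TGFBI, while most receptors and SMADs lie close together.

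Among the secreted inhibitors, noggin and GREM1 were low in both tissues and follistatin was low in eye. FSTL3, a follistatin-like binder of activin and myostatin, led them at 7.38 RPKM in eye and 2.75 RPKM in retina, a ratio of 2.68 (2.53 to 2.85). The eye value came from a transcript of 1558 bases with an E-value of 5.13e-44 and the retina value from one of 1686 bases with 5.26e-46. These 2 transcripts aligned over 91 and 167 residues, and with best-matching transcripts the difference was 0.72, against 1.16. It was 0.92 with an equal total and 0.68 with a pseudocount of 5. The BMP antagonist GREM1, which binds BMP2 and BMP4, was at 2.13 RPKM in eye and 0.976 RPKM in retina. Follistatin itself (FST) had a transcript in eye alone, at 1.31 RPKM.

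Noggin (NOG, entry NOGG), a BMP antagonist that sets up dorsal tissue in the vertebrate embryo, was at 2.11 RPKM in eye and 1.17 RPKM in retina. Those values do not come from comparable transcripts. The eye transcript matched mouse noggin over 232 residues, while the retina transcript matched a fish entry over 64 residues at a similarity of 57%. Among mammalian hits alone, noggin stood at 2.11 RPKM in eye and 0.210 RPKM in retina, where 15 reads stood behind the value, and its difference was 1.36.

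Receptors split into a pair with a wide gap and a majority with similar levels. TGFBR2, the type II receptor that binds TGF-beta, was at 6.12 RPKM in eye and 1.00 RPKM in retina, a ratio of 6.12 (5.64 to 6.65). TGFBR3, also called betaglycan, a co-receptor that presents TGFB2 to TGFBR2, was at 9.08 RPKM in eye and 1.22 RPKM in retina, a ratio of 7.43 (7.10 to 7.78). The difference of TGFBR3 stayed above 2-fold under all 10 alternatives that gave it a value. That of TGFBR2, 1.83, did so under 9 of 10 and was 0.89 with a pseudocount of 5. TGFBR1, the type I partner of TGFBR2, had nearly equal levels, at 4.32 RPKM in eye and 3.87 RPKM in retina, and was lower in eye with an equal total. Type II receptors thus differed in make-up: TGFBR2 held 28.6% of their summed RPKM in eye and 6.35% in retina.

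Type I receptors of the activin and BMP branches lay within 2-fold. ACVR1B, the activin receptor also called ALK4, was the most abundant of the 6 in both tissues, at 12.6 RPKM in eye and 12.9 RPKM in retina, and the counting interval of its ratio (0.950 to 1.00) reached equal levels. ACVR1, also called ALK2, which binds BMP6 and BMP7, was at 9.81 RPKM in eye and 6.05 RPKM in retina, a ratio of 1.62. The BMP receptors BMPR1A and BMPR1B pointed in opposite directions. BMPR1A was at 5.25 RPKM in eye and 4.63 RPKM in retina, and BMPR1B at 3.22 RPKM in eye and 5.85 RPKM in retina, a ratio of 0.549 (0.531 to 0.569) that was the lowest among the 48 members in both tables. BMPR1A differed by -0.08 with an equal total and by -2.17 with transcripts summed, as 6 retina transcripts of 2568 to 2731 bases were listed with 4231 to 4354 reads each, against 1 transcript in eye. ACVR1C stayed below 1 RPKM in both tissues.

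The remaining type II receptors lay within 2-fold. BMPR2, the main type II receptor of BMP ligands, was at 8.68 RPKM in eye and 7.41 RPKM in retina. The activin receptor ACVR2A was at 4.39 RPKM in eye and 4.58 RPKM in retina, and ACVR2B at 2.21 and 2.78 RPKM. ACVR2A differed by -0.05, within its counting interval, but by 0.76 with transcripts summed. With best-matching transcripts BMPR2 differed by -0.05, against 0.20 with the highest transcript, and with an equal total by -0.04, so its direction is uncertain.

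Among the SMADs, SMAD6 and SMAD9 stood apart. SMAD6, an inhibitory SMAD that acts mainly on BMP signals and is itself induced by them, was at 8.65 RPKM in eye and 1.47 RPKM in retina, a ratio of 5.87 (5.41 to 6.39). SMAD9, a BMP-branch SMAD also called SMAD8, was at 6.32 RPKM in eye and 2.42 RPKM in retina, a ratio of 2.61 (2.51 to 2.71). The difference of SMAD6 stayed above 2-fold under all 10 alternatives with a value, while that of SMAD9, 1.10, was 0.86 with an equal total and 0.61 with a pseudocount of 5. SMAD7, the inhibitory SMAD of both branches, was at 5.43 RPKM in eye and 3.72 RPKM in retina. SMAD6 thus made up 61.4% of the summed inhibitory SMADs in eye and 28.4% in retina.

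Other SMADs lay within 2-fold. The BMP-branch SMAD1 was at 4.86 RPKM in eye and 3.55 RPKM in retina, and SMAD5 at 3.48 and 3.19 RPKM. In the TGF-beta branch SMAD2 was at 6.93 RPKM in eye and 5.86 RPKM in retina, and SMAD3 at 5.73 and 3.74 RPKM. SMAD9 held the largest share of the BMP-branch SMADs in eye, 43.1%, and the smallest in retina, 26.4%. SMAD4, the partner shared by both branches, was the one SMAD with a lower value in eye, at 7.62 RPKM against 11.2 RPKM in retina, but this rested on the transcript chosen, and SMAD5 was also lower in eye with an equal total or transcripts summed, SMAD2 with an equal total and SMAD3 with transcripts summed. The longest SMAD4 transcripts, of 4927 bases in eye and 5921 bases in retina, stood at 7.62 and 6.47 RPKM, and the difference with best-matching transcripts was 0.21, against -0.50.

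**Figure D3:**
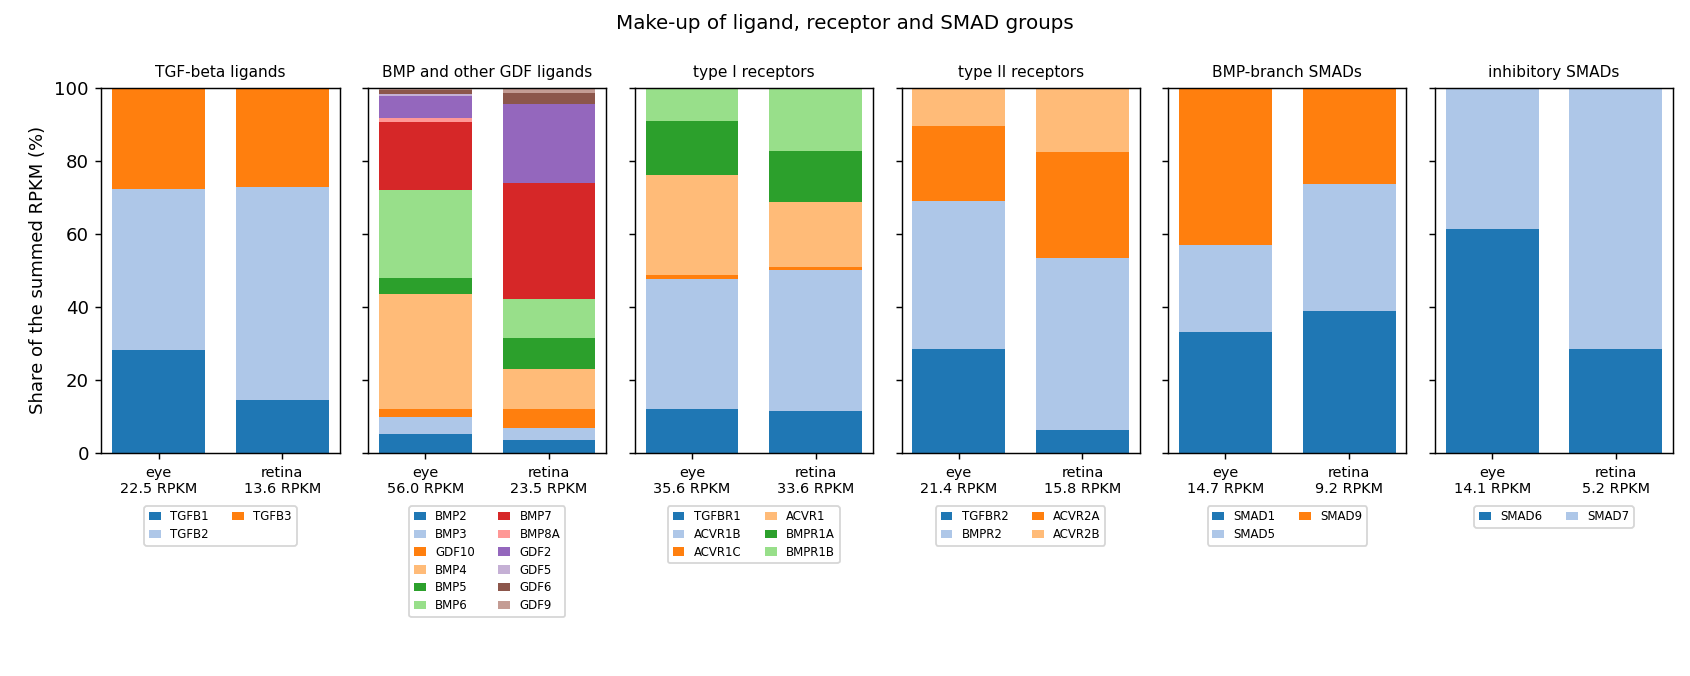
Share of each member in the summed RPKM of its group, for 6 groups of ligands, receptors and SMADs, with eye left of retina in each panel and the sum under each bar. BMP4, TGFBR2, SMAD9 and SMAD6 take larger shares in eye, and BMP7, GDF2, BMPR1B and SMAD7 in retina.

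Proteins that carry the pathway's name without being its core components included the widest difference of all. TGFBI (entry BGH3), a TGF-beta-induced adhesion protein of the extracellular matrix whose mutations cause inherited corneal dystrophies in humans, was at 144 RPKM in eye and 1.21 RPKM in retina, a ratio of 119 (112 to 126). The eye value lay at percentile 96.6 of all proteins in its table, and the retina value at percentile 13.9. Both came from long transcripts, of 2695 bases in eye and 2499 bases in retina, aligned over 657 and 658 residues. The other 5 eye transcripts ran from 37.7 to 142 RPKM. The cornea marker KRT12 was at 2594 RPKM in eye and 1.29 RPKM in retina. Its eye value came from a fragment of 450 bases, and its best-matching eye transcript was at 348 RPKM. By their highest transcripts, all 22 markers outside the neural retina that had a difference were at least 2-fold higher in eye. PTGDS fell below 2-fold with best-matching transcripts. The tissue behind the TGFBI level was not tested.

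FSTL1, a secreted glycoprotein of connective tissue that can bind BMP4, was at 36.1 RPKM in eye and 9.75 RPKM in retina, a ratio of 3.70 (3.63 to 3.78). TGFB1I1 (entry TGFI1, also called Hic-5), an adaptor of focal adhesions in smooth muscle and fibroblasts, was at 7.07 RPKM in eye and 1.59 RPKM in retina, a ratio of 4.43 (4.12 to 4.77). Its difference of 1.64 was 0.67 with transcripts summed and 0.87 with a pseudocount of 5. The smooth muscle marker ACTA2 was at 257 RPKM in eye and 74.9 RPKM in retina. MYH11 was at 25.8 RPKM in eye and 1.06 RPKM in retina, the retina value from a transcript of 316 bases. All 9 marker lists outside the neural retina summed higher in eye by their highest transcripts, and the tissue behind the TGFB1I1 level was not tested.

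The follistatin-related proteins FSTL5 and FSTL4 went the other way. FSTL5 was the most abundant member in retina, at 26.0 RPKM in eye and 44.6 RPKM in retina, a ratio of 0.584 (0.577 to 0.591). FSTL4 was at 2.05 RPKM in eye and 3.45 RPKM in retina, a ratio of 0.596 (0.570 to 0.623). By their highest transcripts the 8 photoreceptor and retinal neuron markers were lower in eye as well, and their list sums had ratios of 0.544 and 0.484. The 2 Mueller glia markers were not, with a ratio of 1.07, though both were lower in eye with best-matching transcripts. ARR3 was higher in eye with those transcripts. The difference of FSTL5, -0.75, reached -1.02 with an equal total and was -0.12 with transcripts summed. BMP1, a procollagen proteinase that also cleaves the BMP antagonist chordin, was at 6.38 RPKM in eye and 4.43 RPKM in retina. TGFBRAP1, a receptor-associated trafficking protein, was at 6.37 RPKM in eye and 7.37 RPKM in retina, and the nuclear protein TBRG1 at 5.09 and 4.98 RPKM. Neither direction was firm: TGFBRAP1 differed by -0.18 but by 0.10 with best-matching transcripts, and TBRG1 by 0.03 but by -0.20 with an equal total.

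**Figure D4:**
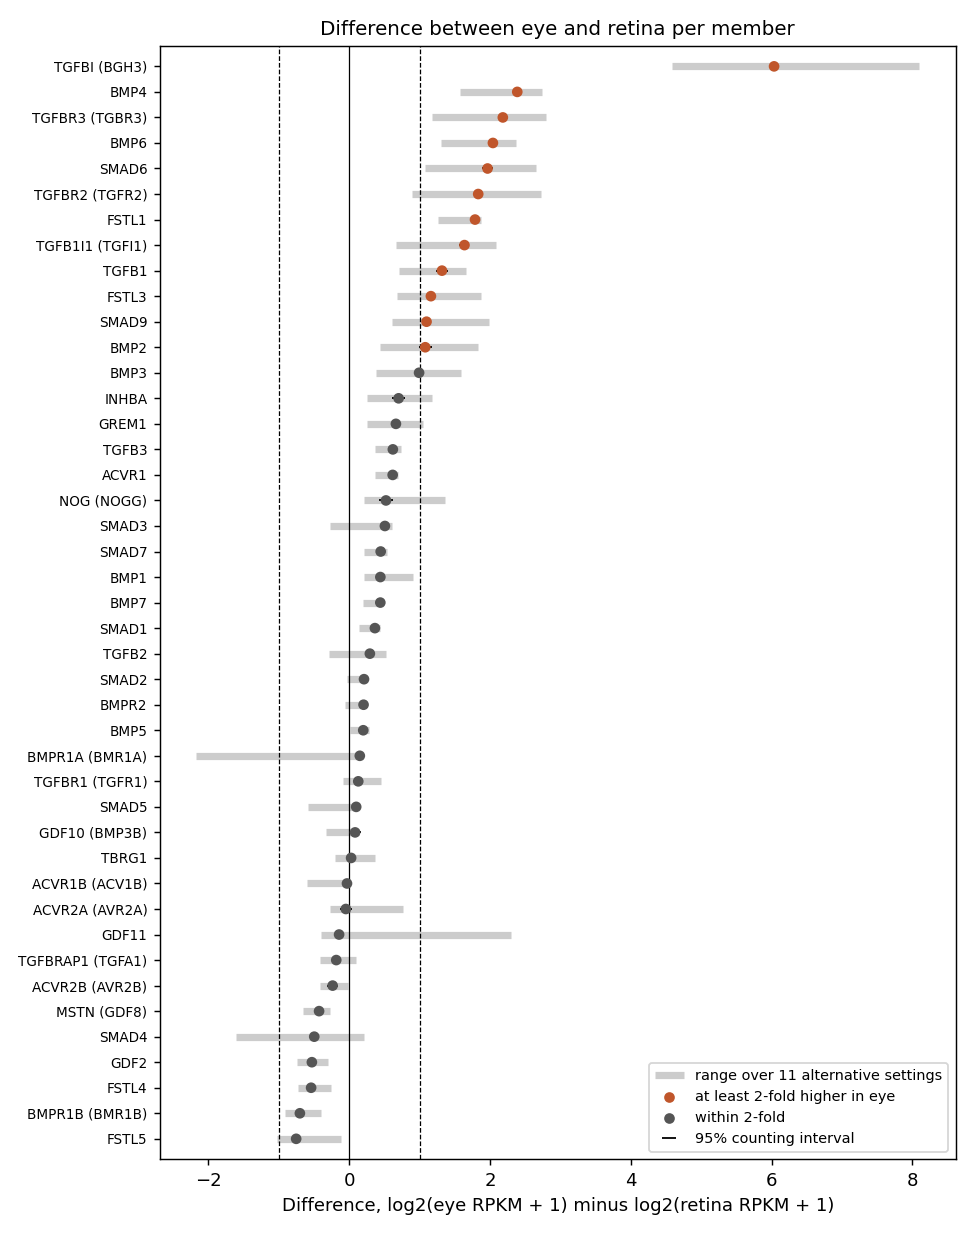
Difference of 43 of the 44 members that reach 1 RPKM in one tissue, on the log2(RPKM + 1) scale, eye minus retina, sorted by size, with the 95% counting interval (black, often narrower than the point) and the range over 11 alternative settings (grey bar); dashed lines mark 2-fold. BMP4, BMP6, TGFBR3, SMAD6, TGFBI and FSTL1 stay above 2-fold over their whole range, and the bars of BMPR1A, GDF11 and SMAD4 are wide.

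Counting error was small beside the widest differences, whereas the intervals of ACVR1B, ACVR2A and TBRG1 included 0. The 10 widest differences rested on at least 3037 reads in eye and 663 reads in retina, and for 8 of the 10 the best hit had an E-value listed as 0 in both tissues. Over the 44 members the counting interval of the difference reached 0.099 above or below it at most, with a median of 0.052. Such intervals treat reads as independent and say nothing of the spread between animals or libraries. Recovered reads summed to 19.2 times the total behind the scaling in eye and 10.5 times in retina, so reads may be counted on several transcripts. The intervals do not allow for that.

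The wider pathway was described with 68 genes in 4 lists that the naming rule does not reach, and 55 of them had a difference. Eye was higher by 2-fold or more for 19 of the 55 and retina for 2, with a median difference of 0.51, against 11.8%, 3.6% and -0.0035 over all proteins. CHRD, LTBP1, LRRC32, THBS1, TGIF1 and TGIF2 reached 1 RPKM in eye alone and so had to lie higher there. Among the 49 others the counts were 16 and 2 and the median 0.38. With an equal total the 55 gave 15, 4 and 0.24, where the background was 8.75%, 6.6% and -0.24. The eye count was 11 with a pseudocount of 5, where 6.09% of all proteins passed. The retina count was 7 with transcripts summed, where 19.3% of all proteins passed. Target genes and latency proteins contributed most of the 19, and regulators of SMAD activity few.

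Genes known as targets of BMP or TGF-beta signals stood higher in eye in 11 of 13 cases, by 2-fold or more in 9, with a list median of 1.48, and 1 was at least 2-fold higher in retina (0 with best-matching transcripts). Over all proteins 49.7% had higher values in eye, and 11.8% passed 2-fold there. The 9 became 7 with an equal total and 6 with a pseudocount of 5, where 8.75% and 6.09% of all proteins passed. ID3 and ID1, inhibitors of helix-loop-helix factors and direct BMP targets, were at 104 and 37.0 RPKM in eye and at 6.11 and 2.78 RPKM in retina, ratios of 17.0 (16.3 to 17.7) and 13.3 (12.5 to 14.2). Their relatives ID2 and ID4 were near equal, with ID2 at 55.7 RPKM in eye and 41.6 RPKM in retina and ID4 at 10.7 and 11.9 RPKM. CCN2, the connective tissue growth factor, was at 59.9 RPKM in eye and 6.37 RPKM in retina, and TAGLN, an actin-binding protein of smooth muscle, at 68.1 and 7.22 RPKM. MSX1, MSX2 and SNAI2 were in the eye table only. Several of these genes also mark connective tissue or smooth muscle, and COL1A1 is in both the target and the connective tissue list.

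Extracellular antagonists and latency proteins were higher in eye in 13 of 14 cases, by 2-fold or more in 6, with a median of 0.92. Of all proteins, 49.7% were higher in eye and 11.8% passed 2-fold there. As 4 of the 14 reached 1 RPKM in eye alone, 9 of the other 10 were higher in eye, 4 by 2-fold or more. An equal total left 11 of the 14 higher in eye. A pseudocount of 5 left 4 of the 6, where 6.09% of all proteins passed. Transcripts summed gave 10 higher and a median of 0.51. TWSG1, which binds BMP together with chordin, was at 40.7 RPKM in eye and 23.7 RPKM in retina, and the BMP antagonist NBL1 at 39.1 and 20.3 RPKM. LTBP3, which holds latent TGF-beta in the matrix, was at 25.1 RPKM in eye and 21.1 RPKM in retina. LTBP1, LTBP2 and LTBP4 had ratios of 8.30, 5.48 and 5.33. THBS1, an activator of latent TGF-beta, was at 17.0 RPKM in eye and 0.398 RPKM in retina, the retina value from a transcript of 339 bases. VWC2, a secreted BMP antagonist, was lower in eye, at 11.7 RPKM in eye and 16.9 RPKM in retina.

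Further ligands, receptors and co-receptors were mixed, with 6 of 10 higher in eye, where 49.7% of all proteins were. Their median was 0.20, against -0.06 with an equal total and -0.0028 with best-matching transcripts. The convertase FURIN, which cleaves the ligand precursors, was at 18.0 RPKM in eye and 11.8 RPKM in retina, and the repulsive guidance receptor NEO1 at 11.6 and 11.4 RPKM. BAMBI, a decoy receptor without a kinase, was at 6.96 RPKM in eye and 14.2 RPKM in retina, a ratio of 0.491 (0.474 to 0.508). The integrin subunit ITGAV, which takes part in activating latent TGF-beta, was at 12.3 RPKM in eye and 8.76 RPKM in retina. Endoglin (ENG), a co-receptor of endothelium, and the BMP co-receptor RGMA were at least 2-fold higher in eye, at ratios of 3.00 and 4.14, while AMH, the anti-Muellerian hormone, had a ratio of 0.282 between transcripts of 1345 and 4752 bases.

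Regulators of SMAD activity were split evenly. Of 18, 9 had higher values in eye, 2 of these by 2-fold or more, where 11.8% of all proteins passed. TGIF1 and TGIF2 were among the 9 and reached 1 RPKM in eye alone. Among the 16 others 7 were higher in eye, 1 by 2-fold or more, with a median of -0.09. The median of the 18 was -0.03, against -0.26 with an equal total. A pseudocount of 5 left 0 of the 2, and transcripts summed put 4 at least 2-fold higher in retina, where 19.3% of all proteins passed. FKBP1A, a binding protein that keeps type I receptors silent, was at 90.2 RPKM in eye and 63.0 RPKM in retina, and STRAP, which strengthens the hold of SMAD7 on the receptor, at 38.6 and 53.3 RPKM. The phosphatase PPM1A, which acts on SMAD2 and SMAD3, was at 26.0 RPKM in eye and 20.0 RPKM in retina. The pair at least 2-fold higher in eye were the repressor TGIF1, at 4.27 RPKM in eye and 0.495 RPKM in retina, and the phosphatase CTDSP1, at 24.1 and 10.5 RPKM.

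**Figure D5:**
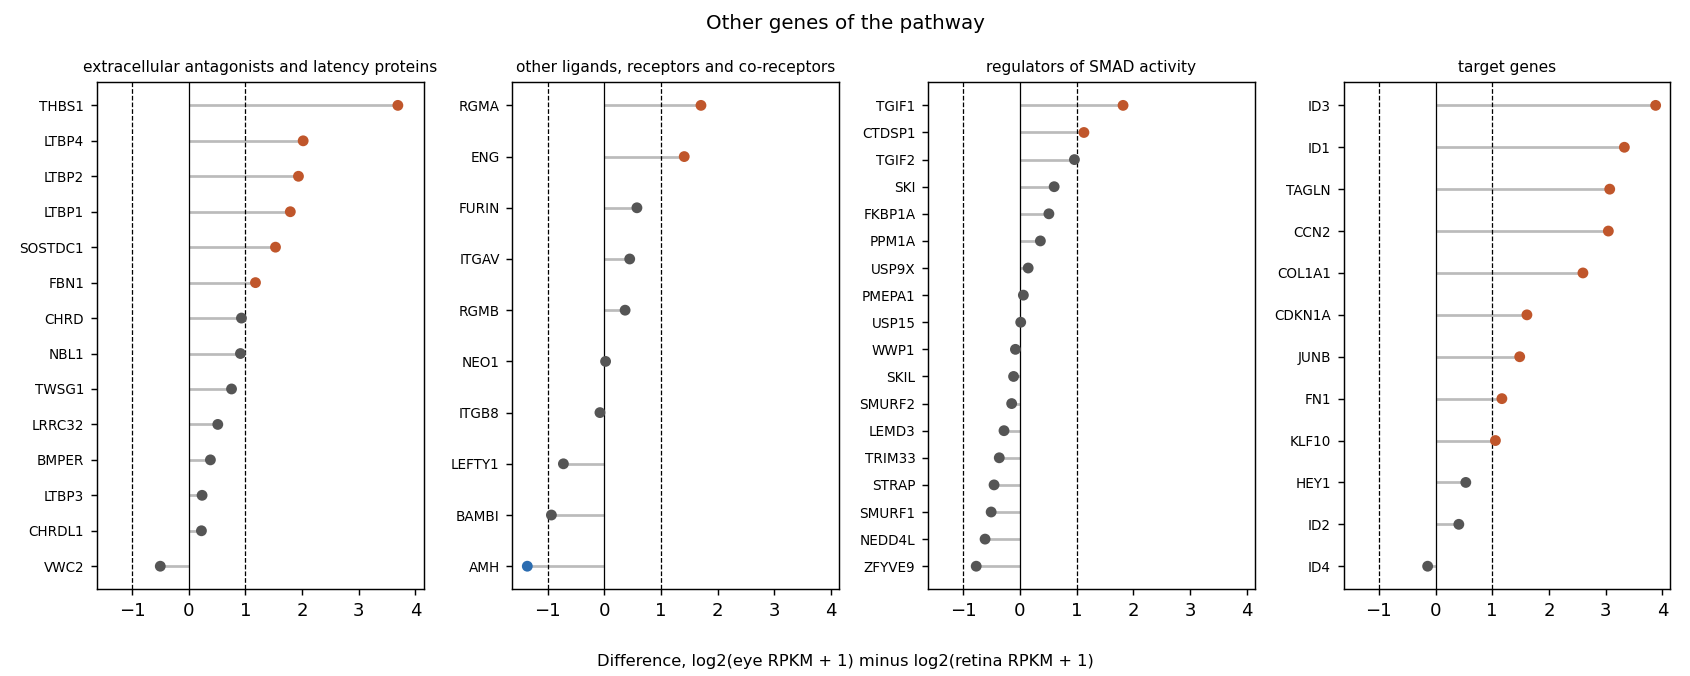
Differences on the log2(RPKM + 1) scale, eye minus retina, of 54 of the 55 genes of 4 pathway lists that reach 1 RPKM in one tissue; orange marks eye higher by 2-fold or more, blue retina higher by 2-fold or more and grey neither. ID3, ID1, TAGLN and CCN2 lead the targets at 3.05 to 3.88, and the regulators of SMAD activity centre on 0.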

How the data were processed

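Each tissue has 1 table of transcripts with a value and a length and 1 table of best Swiss-Prot hits with a similarity in percent, a bit score and an E-value, per the file headers. The deposited values are called expression values, per the file headers, and were read here as RPKM from the values themselves. The authors used Bowtie, per the submitters' processing notes. Neither a version nor the assembler and counting method is given in the sources used here. Value times length was a whole multiple of 1 constant per table within 0.01 reads for 100% of transcripts, which gives 264219334 reads behind the eye scaling and 355988270 behind the retina scaling. Recovered reads summed to 19.2 and 10.5 times these totals, so reads may be counted on several transcripts, and the level is therefore the highest transcript of a protein, not the sum.

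Proteins were joined by the Swiss-Prot name before the species code. Counting intervals at 95% combined the Poisson intervals of both tissues on the log scale and cover counting error only. No test was run, as a tissue has 1 value. Members, lists and settings were chosen with earlier results of these data known. Members at 1 RPKM or more are named, with intervals for the 10 widest differences and some others, and up to 4 genes per list with the highest mean level. A member and a list gene are not reported here by name, though counts and medians include them. Other list genes are examples picked with their values known. The alternatives were run on the lists as an addition made after seeing the data. RefSeq symbols of assembly mIctTri1.hap1 matched 50 of 51 members, all but BMP8A. Python 3.11.15, pandas 2.3.3 and scipy 1.17.1 were used, and the functions were tested on simulated data. No sequences are shown.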

Additional observations from a re-analysis of the deposited data

How the results depend on the processing

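In all, 11 alternatives were run. The number of members at least 2-fold higher in eye, 12, was 6 with a pseudocount of 5 (background 6.09%). It was 4 with a filter at 10 RPKM, which left 9 members (background 12.8%). Under the other 9 alternatives it lay between 9 and 15, where the background ran from 8.75% to 16.8%. The number at least 2-fold higher in retina, 0, was 2 with transcripts summed (BMPR1A and SMAD4) and 1 with an equal total (FSTL5), settings in which 19.3% and 6.6% of all proteins passed. The median difference, 0.40, was 0.16 with an equal total, 0.46 with a pseudocount of 0.1, 0.21 with a pseudocount of 5 and 0.28 with no filter. A larger pseudocount shrinks differences of low genes by construction. Of the 12 members, 6 kept the 2-fold difference under every alternative with a value: BMP4, BMP6, TGFBR3, SMAD6, TGFBI and FSTL1. Best-matching transcripts took BMP2 and FSTL3 off the 12 and added NOG. No called difference changed sign. Leaving out a library was not possible with 1 value per tissue. No paired analysis was possible because each table holds 1 value per tissue. Depth limits little here except for members under 1 RPKM, which rest on 18 to 530 reads.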

Other observations

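TGF-beta receptors also signal without SMADs, through the kinase TAK1 and its binding proteins. These genes were chosen after their values were seen. TAK1 itself (entry M3K7) was at 9.29 RPKM in eye and 10.5 RPKM in retina, a difference of -0.16. Its partner TAB1 was at 12.8 RPKM in eye and 14.2 RPKM in retina, TAB2 at 14.5 and 13.3 RPKM, and TAB3 at 3.08 and 4.28 RPKM. The ubiquitin ligase TRAF6, which activates TAK1, was at 5.47 RPKM in eye and 3.39 RPKM in retina, and the BMP-inducible kinase BMP2K at 4.97 and 2.33 RPKM. All 6 lay within 2-fold on the log2(RPKM + 1) scale, as did 84.6% of all proteins, with BMP2K the widest of the 6 at 0.84.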
